A study of Gallus gallus with 6 samples.

Results

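Janus kinase (JAK) signaling was examined in the wounded chick lens through 10 genes: the kinases JAK1 and JAK2, the transcription factor STAT3, the feedback inhibitor CISH, the phosphatases PTPN2 and PTPN11, the PIAS1 and PIAS2 regulators of STAT activity and the PIM1 and PIM3 kinases. They were found by gene symbol in a table of 17262 genes, and each of the 10 symbols matched 1 gene. The set was chosen by gene name with the fold changes of this same comparison already known, so the differences of the members between the time points are a description and no test of them is given as support. Whole lenses were taken from chick embryos at embryonic day 14, the central epithelium and the fiber cell mass were removed ex vivo, and the explant was what remained, namely the capsule, the equatorial epithelial cells on it and immune cells residing among them. RNA was sequenced from 3 libraries at time 0, collected directly after wounding, and from 3 libraries at 1 h, for which explants were cut, flattened and cultured at 37 °C in Media 199 with 10% fetal bovine serum, 1% L-glutamine and 1% penicillin and streptomycin. Each library was a pool of 6 explants, and both groups carried the same cataract surgery wound. There was no unwounded group. The time after wounding, the further cutting and flattening, and the time in serum-containing culture cannot be told apart.

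In the JAK-STAT pathway, a cytokine or hormone brings together receptor chains whose tails carry JAK tyrosine kinases. The kinases phosphorylate the receptor and then STAT proteins, which pair, enter the nucleus and switch on target genes within minutes to hours. Several of those targets, among them CISH and some of the SOCS genes, encode SH2-domain proteins that bind the activated receptor or kinase. These proteins shut the signal down, while phosphatases remove the phosphate and PIAS proteins act on STATs in the nucleus. In lens epithelium, STAT3 is known as a mediator of cytokine and growth factor signals.

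The libraries held between 13733581 and 17673955 counts. Levels are given as CPM, counts relative to library size after TMM scaling in edgeR, with means ± SD over 3 libraries, and 3 counts, taken as the floor, corresponded to 0.175 to 0.221 CPM. When the 12391 genes with enough reads were compared by the quasi-likelihood method of edgeR (Benjamini-Hochberg adjustment), 31.8% had an adjusted p under 0.05, 19.8% higher and 12.0% lower at 1 h. Scaling moved that split: 62.2% of the genes under the threshold were higher with TMM, 35.9% with upper-quartile normalization and 52.2% with library totals. Upper-quartile normalization shifted the median of all log2 fold changes from -0.01 to -0.14. Among markers of the tissue, 10 of 11 lens fiber genes were lower at 1 h. Their summed level was 50610 to 54988 CPM at time 0 and 38034 to 41203 CPM at 1 h. Of 7 genes listed as epithelial, GJA1 and ASL1 were lower, and PAX6 and PROX1 were higher. ASL1 was at 33347 ± 4526 CPM at time 0 and 23572 ± 3033 CPM at 1 h. Whether its fall, or the rise of PROX1, arose in epithelial cells or in remaining fiber cells was not tested. Of 16 listed immune cell symbols, 11 had a row. With edgeR 4 were tested and 0 were under the threshold, and with DESeq2 1 was higher. The markers found summed to 4.33 to 6.34 CPM at time 0 and 5.90 to 8.68 CPM at 1 h, with PTPRC at 8 to 35 counts per library. TLR4 was read 1, 1 and 0 times at time 0 and 15, 9 and 10 times at 1 h. CSF1R was read 30, 41 and 12 times and then 21, 18 and 11 times. Blood cell markers summed to 30.3 to 57.1 CPM, of which ALAS2 alone made up 25.2 to 29.4 CPM in each library. The highest sum was that of 1 h replicate 1, which held 309 counts of the globin gene HBA1. The other 1 h libraries held 0 and 3 counts of HBA1, and the time 0 libraries 29, 44 and 40. The part of these shifts in the values below was not tested. In such bulk samples, fewer cells of a type and less RNA per cell cannot be told apart.

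All 10 members had enough reads for the fit. At 1 h, 7 of the 10 were higher by edgeR's adjusted p, a call that 19.8% of all genes had in that direction, and 0 were lower, a count that was also 0 at an unadjusted edgeR p under 0.05 and with DESeq2. The libraries of the time points did not overlap for 8 of the 10, all 8 with 1 h above time 0, where 25.4% of all genes lay fully above and 21.4% fully below. Together the 10 genes took 391 to 398 CPM at time 0 and 2206 to 2470 CPM at 1 h. The increase was uneven. CISH, STAT3, PIM1 and PIM3 were between 6.06 and 26.0 times their time 0 mean, and the other members between 1.09 and 1.77 times.

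**Figure D1:**
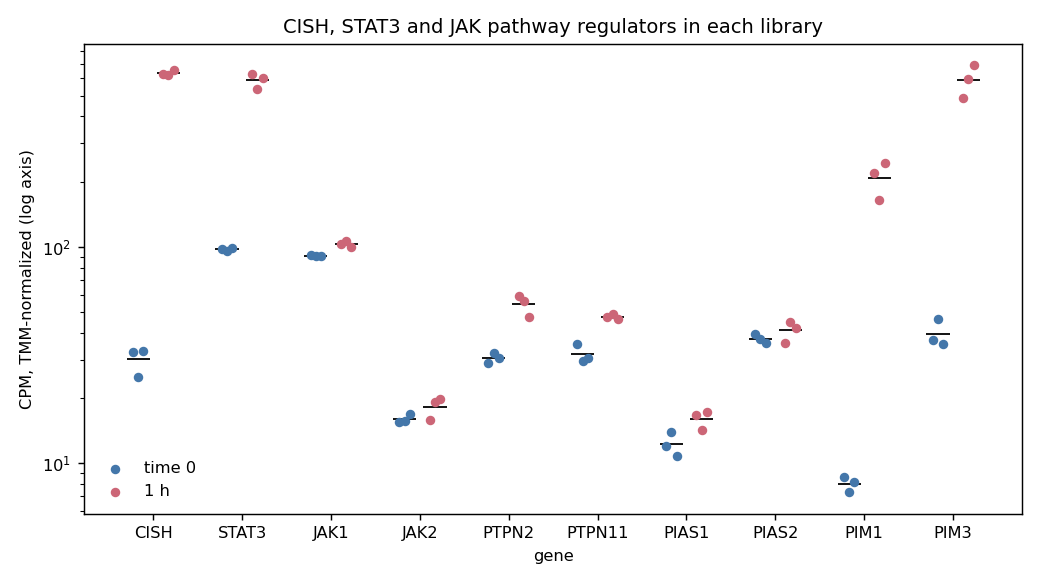
Level of each of the 10 genes in CPM (TMM-normalized, log axis) in the 3 libraries at time 0 and the 3 libraries at 1 h; points are libraries and black lines the means. CISH, STAT3, PIM1 and PIM3 stand far above their time 0 libraries at 1 h, whereas JAK2 and PIAS2 overlap.

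The 2 Janus kinases of the set differed in level but little between the time points. JAK1 (ENSGALG00000011031, chromosome 8 from 28552333 to 28603383, minus strand, in the authors' table, for which the sources used here give no genome build) serves the receptors of interferons and of the interleukin-6 family. It was at 91.1, 90.7 and 91.0 CPM in time 0 replicates 1, 2 and 3 and at 102.5, 106.8 and 100.1 CPM at 1 h. Every 1 h library lay above every time 0 library, by at least 1.10 and at most 1.18 times. The log2 fold change was 0.18 (standard error, SE, 0.07, 95% interval 0.04 to 0.33). After adjustment over all genes, JAK1 was not among those under the threshold. JAK2 (ENSGALG00000015027, chromosome Z from 27532087 to 27615380, plus strand) transmits signals of hormone-type receptors such as those of growth hormone, and also of interferon gamma. Its levels were 15.5, 15.6 and 16.8 CPM at time 0 and 15.8, 19.2 and 19.7 CPM at 1 h. Here the groups overlapped, since 1 h replicate 1 fell within the time 0 range. Its log2 fold change was 0.19 (SE 0.12, 95% interval -0.07 to 0.45), so these data leave room for a small difference in either direction. Per kb of gene length, JAK1 was 8.51 ± 0.39 times the level of JAK2 at time 0 and 8.54 ± 1.07 times at 1 h, and the ratios overlapped.

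STAT3 (ENSGALG00000003267, chromosome 27 from 7716059 to 7727343, minus strand) encodes the transcription factor that the interleukin-6 family of cytokines activates through JAK1. In the time 0 libraries it was at 97.6, 95.4 and 99.1 CPM, and in the 1 h libraries at 630.8, 533.7 and 605.1 CPM. The groups were far apart, with the lowest 1 h library 5.39 times the highest time 0 library. On the log2 scale the fitted change was 2.60 (SE 0.08), the 232nd largest of the 12391 genes. STAT3 protein is controlled mainly by phosphorylation, which RNA counts do not measure.

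CISH (ENSGALG00000002260, chromosome 12 from 2264031 to 2268470, minus strand) encodes an SH2-domain protein of the SOCS family that is itself switched on by STATs, best known from STAT5, and dampens signaling of growth hormone, prolactin and interleukin-2 type receptors in mammals. Its reads numbered 441, 387 and 500 at time 0 and 9620, 9749 and 11287 at 1 h. In CPM this was 32.5, 25.0 and 32.8 at time 0 and 628, 622 and 659 at 1 h. The 1 h libraries agreed more closely than those at time 0, with coefficients of variation of 3.13% and 14.6%, the latter set by the low value of replicate 2. Even the lowest 1 h library held 19.0 times the highest time 0 level, and the log2 fold change was 4.40 (SE 0.11), the 97th largest of all genes tested.

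The PIM genes encode serine/threonine kinases that need no activation by another kinase and promote survival and growth, and in mammalian blood cells PIM1 is a known STAT target. PIM1 (ENSGALG00000038902, chromosome 26 from 238271 to 241790, minus strand) was at 8.63, 7.31 and 8.13 CPM at time 0 and at 218, 164 and 243 CPM at 1 h. Its log2 fold change of 4.70 (SE 0.16) was the largest of the 10 genes under TMM scaling and the 77th of all genes. PIM3 (ENSGALG00000023576, chromosome 1 from 19335370 to 19339085, minus strand) started higher, at 37.0, 46.1 and 35.7 CPM, and reached 488, 596 and 689 CPM. The PIM3 log2 fold change was 3.90 (SE 0.15). Neither gene overlapped between the time points, but both varied more among the 1 h libraries than CISH or STAT3 did, with coefficients of variation of 19.4% for PIM1 and 17.1% for PIM3 against 3.13% and 8.53%. PIM1 was lowest in 1 h replicate 2 and PIM3 in 1 h replicate 1. Per kb, PIM3 stood at 5.29 ± 1.21 times PIM1 at time 0 and at 3.07 ± 0.75 times at 1 h, and every 1 h ratio lay below every time 0 ratio.

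Of the phosphatases, PTPN2 (ENSGALG00000013867, chromosome 2 from 97013090 to 97047494, plus strand), the T-cell protein tyrosine phosphatase, removes phosphate from JAK1 and from STATs. PTPN2 was at 29.0, 32.3 and 30.7 CPM at time 0 and at 59.2, 56.2 and 47.5 CPM at 1 h, without overlap, and its log2 fold change was 0.82 (SE 0.10). The span of the gene, introns included, overlaps that of PSMG2 on the opposite strand over 9564 bases. No source says whether strand was used in counting, and how reads from that stretch were handled is not known. PSMG2 itself was at 22.1 to 24.5 CPM at time 0 and 18.5 to 25.6 CPM at 1 h, with overlapping libraries. PTPN11 (ENSGALG00000004821, chromosome 15 from 6682823 to 6704251, plus strand) encodes SHP2, which links many receptors to the RAS-MAPK pathway and acts on JAK-STAT signals as well. It was at 35.5, 29.7 and 30.6 CPM at time 0 and at 47.3, 48.7 and 46.5 CPM at 1 h. These groups were also separate, with a log2 fold change of 0.57 (SE 0.09).

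The PIAS proteins are SUMO ligases first described as inhibitors of activated STATs. PIAS1 (ENSGALG00000007970, chromosome 10 from 19522398 to 19573066, plus strand) was at 12.0, 13.8 and 10.7 CPM at time 0 and at 16.6, 14.2 and 17.2 CPM at 1 h. The groups nearly touched, with 1 h replicate 2 only 1.02 times time 0 replicate 2, and the log2 fold change was 0.39 (SE 0.14). PIAS1 passed the threshold in the fit used here and failed it under 9 of 12 other settings, among them leaving out time 0 replicate 1 or 3 or 1 h replicate 1 or 3. PIAS2 (ENSGALG00000039434, chromosome Z from 1785332 to 1812672, plus strand) was at 39.4, 37.4 and 36.0 CPM at time 0 and at 36.0, 44.7 and 42.2 CPM at 1 h. Its libraries overlapped. The log2 fold change was 0.12 (SE 0.09, 95% interval -0.08 to 0.33) with TMM and -0.01 with upper-quartile normalization.

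Levels of different genes were compared per kb of the gene length listed by the authors. At time 0 the order ran from JAK1 (24.4 ± 0.06 CPM per kb) through CISH (23.9 ± 3.49), STAT3 (22.0 ± 0.42) and PIM3 (20.1 ± 2.89) to PTPN11, PTPN2, PIAS2, PIAS1, PIM1 (3.85 ± 0.32) and JAK2 (2.87 ± 0.13 CPM per kb). The 4 genes at the top overlapped each with its neighbor in the order, as did PIAS1 and PIM1. At 1 h the order was CISH (504 ± 15.8 CPM per kb), PIM3 (301 ± 51.4), STAT3 (133 ± 11.4), PIM1 (100.2 ± 19.4), JAK1 (27.7 ± 0.90), PTPN11, PTPN2, PIAS2, PIAS1 and JAK2 (3.28 ± 0.38 CPM per kb). Here only PTPN11 and PTPN2 overlapped as neighbors. CISH moved from rank 2658 to rank 135 of the 12391 genes by level per kb, PIM3 from 3152 to 209, PIM1 from 8532 to 596 and STAT3 from 2896 to 452. JAK1, at rank 2594 and then 2447, and JAK2, at 9236 and 9164, kept nearly the same place. CISH per kb was 1.08 ± 0.14 times STAT3 at time 0 and 3.80 ± 0.30 times STAT3 at 1 h.

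**Figure D2:**
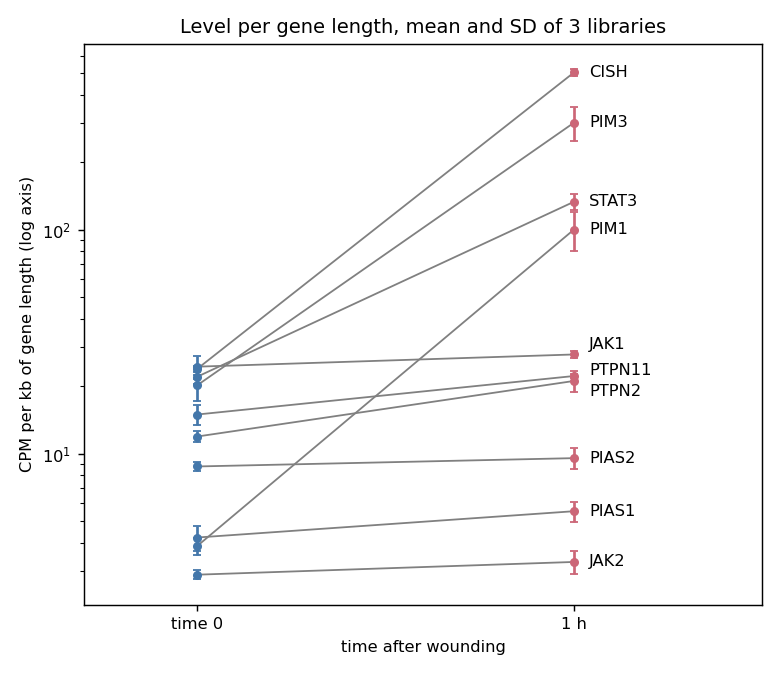
Mean level per kb of gene length (CPM per kb, log axis) of the 10 genes at time 0 and 1 h, joined by lines; bars are the SD of 3 libraries. CISH, PIM3, STAT3 and PIM1 occupy the top of the order at 1 h, while the lines of JAK1, JAK2 and PIAS2 are nearly flat.

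The genes with the profile most like that of CISH, by the root mean square difference of log2 CPM relative to the time 0 mean over the 6 libraries, were ERRFI1 (0.15), MYC (0.16), DUSP8 (0.19), NFIL3 (0.22) and ARID5A (0.24), out of 7606 genes with a symbol and a mean log2 CPM of at least 3. For STAT3 they were MIDN (0.09), CREB5 (0.10), PRELID3A (0.11), HIVEP2 (0.12) and SESN2 (0.13). With 2 time points this likeness rests mostly on a similar size of the increase.

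Other genes of the pathway were taken from lists by role, drawn up with earlier results of these data known. Of 114 listed symbols, 69 had a row in the table and 56 passed the filter on low counts. Genes were matched by symbol only, and 5219 of the 17262 rows carried no symbol. A listed gene without a match is therefore not shown to be unexpressed. By edgeR's adjusted p over all genes, 31 of these 56 were significantly higher and 1 was lower at 1 h, beside 19.8% and 12.0% of all genes. Their median log2 fold change was 0.47 against -0.01 for all genes tested, and that of the 10 members was 0.70.

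Few ligands could be followed by symbol. Of 25 symbols, 8 had a row and 3 were tested. CLCF1, a cytokine of the interleukin-6 family, rose from 2.88, 5.37 and 5.05 CPM at time 0 to 19.5, 13.6 and 17.6 CPM at 1 h (log2 fold change 1.92, SE 0.22, adjusted p = 4.69e-05 with edgeR). CNTF, another ligand of that family, was more abundant but overlapped, at 65.7 ± 8.32 and then 58.4 ± 10.7 CPM. IL6 itself was read 5, 2 and 0 times at time 0 and 27, 5 and 8 times at 1 h, which overlapped and did not suffice for testing.

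Among 15 receptor genes tested, 6 were significantly higher, beside 19.8% of all genes, and 5 were higher with DESeq2. IL6ST, which encodes gp130, the shared chain of the interleukin-6 family receptors, rose from 45.8 ± 5.63 to 97.5 ± 5.85 CPM (log2 fold change 1.09, SE 0.09, adjusted p = 3.32e-06 with edgeR). IFNAR1, a chain of the type I interferon receptor, had the largest change of the receptors whose log2 CPM averaged 1 or more. It was at 6.71, 8.21 and 7.01 CPM at time 0 and 29.9, 30.6 and 34.9 CPM at 1 h (log2 fold change 2.12, SE 0.12, adjusted p = 9.20e-08 with edgeR). The chain IFNGR1 of the interferon gamma receptor followed among these, with a log2 fold change of 1.13. IL13RA1, named after its values were seen, went from 6, 3 and 3 reads to 133, 161 and 139 reads. Its fitted log2 fold change was larger, at 5.01 (SE 0.31), with a mean log2 CPM of 0.92. IL13RA2, with a mean log2 CPM of 0.08, changed by 1.21 (SE 0.41) and was near the threshold (adjusted p = 0.0425 with edgeR). The ligand-binding chains IL6R, LIFR, CNTFR and IL11RA were not significantly changed, their log2 fold changes lying between -0.32 and 0.35. GHR, the growth hormone receptor, was at 22.0 ± 1.83 and 22.4 ± 2.22 CPM.

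Of 7 other kinases and STATs listed, 2 had a row and were tested. No row carried the symbol JAK3, STAT4, STAT5A, STAT5B or STAT6. STAT2 carries signals of type I interferons. STAT2 changed by 0.39 in log2 (SE 0.12, adjusted p = 0.0323 with edgeR), a call that failed under 6 of 12 other settings, including without time 0 replicate 1 or 3 or 1 h replicate 1 or 3. The kinase TYK2, a partner of JAK1 at interferon receptors, was at 27.3 ± 2.63 and 31.2 ± 3.12 CPM and was not significantly changed.

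Of 13 other inhibitors tested, 7 were significantly higher, beside 19.8% of all genes. SOCS3 and SOCS1, members of the SOCS family that block JAK activity directly, had log2 fold changes of 5.89 (SE 0.71) and 3.69 (SE 0.54). Unlike CISH, SOCS3 was uneven among the 1 h libraries, with 129, 473 and 309 CPM and a coefficient of variation of 56.7%, and for SOCS1 this was 50.3%. SOCS4, SOCS5 and SOCS7 rose by 1.24, 0.60 and 0.47 on the log2 scale. SOCS2, a feedback inhibitor of the growth hormone receptor like CISH, was at 45.4 ± 6.70 CPM at time 0 and 51.3 ± 11.6 CPM at 1 h, with overlapping libraries. CISH per kb was 0.432 ± 0.118 times SOCS2 at time 0 and 8.17 ± 1.86 times SOCS2 at 1 h. SOCS6 likewise overlapped, with a log2 fold change of 0.10. PTPN1, the phosphatase closest to PTPN2, rose from 8.70, 6.53 and 8.06 CPM to 31.7, 25.4 and 36.7 CPM (log2 fold change 2.01, SE 0.16, adjusted p = 1.75e-06 with edgeR). Whether PTPN1 and PTPN2 differed in their change was not tested. PIAS3 and PIAS4 had log2 fold changes of 0.24 and 0.36 and were not significantly changed.

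Of 10 adaptors and cofactors tested, 6 were significantly higher, beside 19.8% of all genes. The largest log2 fold changes were those of the acetyltransferases EP300 (0.89, SE 0.11) and CREBBP (0.77, SE 0.09), which STATs recruit to chromatin. STAM2, a protein that sorts receptors in endosomes, followed with 0.58 (SE 0.07). GRB2, which links receptors to RAS, was at 99.4 ± 2.37 and 90.1 ± 1.63 CPM and was not significantly changed.

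Among 13 genes known as STAT3 targets in mammals, 10 were significantly higher and 1 was lower, beside 19.8% and 12.0% of all genes. Such genes can also answer to other signals, and whether STAT3 drove these changes was not tested. IRF1 went from 1, 0 and 2 reads to 2021, 3780 and 4964, and CEBPB from 0, 2 and 0 reads to 535, 550 and 825. Against a floor of 3 counts per time 0 library they were at least 1084-fold and at least 193-fold higher. FOS went from 2.88, 11.8 and 2.23 CPM to 1040, 3262 and 2496 CPM (log2 fold change 8.63, SE 0.93), and without time 0 replicate 2, the highest of its group, the log2 fold change was 9.80. The gene that fell was BCL2L1, which encodes the survival protein BCL-XL. BCL2L1 dropped from 65.9 ± 5.38 to 41.0 ± 2.86 CPM (log2 fold change -0.68, SE 0.09, adjusted p = 9.94e-05 with edgeR), while the related survival gene MCL1 rose from 279 ± 7.42 to 486.5 ± 31.0 CPM.

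**Figure D3:**
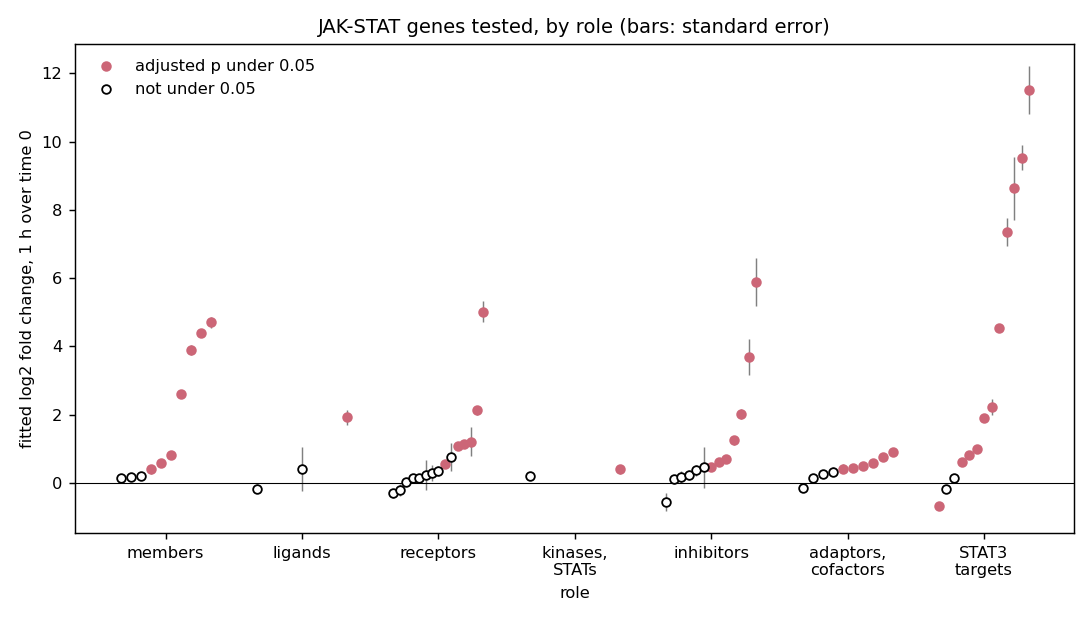
Fitted log2 fold change (1 h over time 0) with its standard error for the 10 members and for the 56 other pathway genes tested, grouped by role; filled points had an adjusted p under 0.05 in edgeR's test over all genes and open points did not. CISH, PIM1, PIM3 and STAT3 make up the upper part of the members, and BCL2L1 among the STAT3 targets is the single filled point below 0; genes at 3 counts or fewer at time 0, such as IRF1 and CEBPB, have fitted values that depend on the prior count.

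Over 12 other settings, log2 fold changes were 4.27 to 4.47 for CISH, 2.46 to 2.65 for STAT3, 4.56 to 4.84 for PIM1 and 3.75 to 4.02 for PIM3. They lay between 0.69 and 0.89 for PTPN2 and between 0.44 and 0.65 for PTPN11. For JAK1 they ranged from 0.05 to 0.18 and for JAK2 from 0.06 to 0.27.

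**Figure D4:**
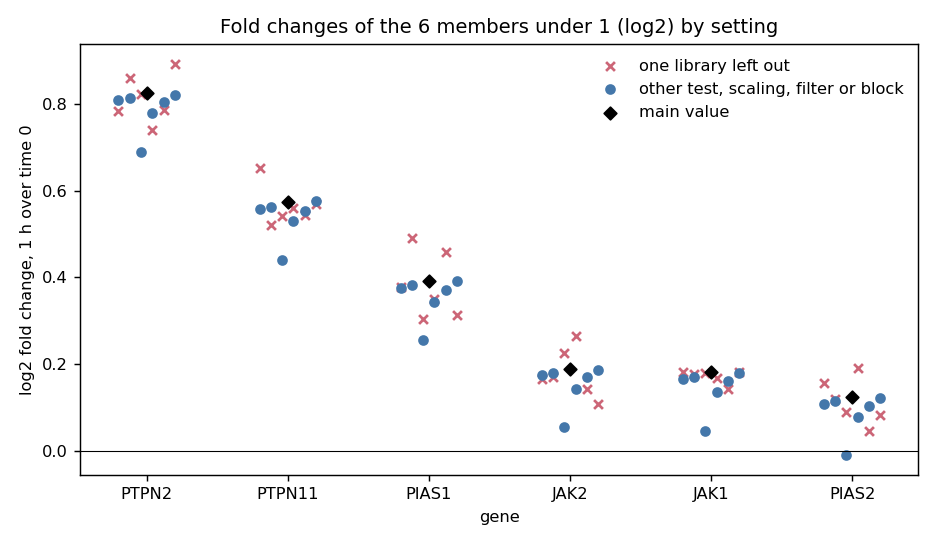
Log2 fold change (1 h over time 0) of the 6 members under 1 on that scale, in the fit reported (diamonds), with another test, scaling, filter or a replicate block (circles) and with each library left out (crosses). PTPN2 and PTPN11 stay above 0.4, and the lowest circle of each gene is upper-quartile normalization, which places PIAS2 at -0.01.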

How the data were processed

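RNA-seq reads were counted per gene by the authors, who deposited raw counts for 6 libraries in 1 table of 17262 genes, with gene lengths and coordinates. The submitters' processing notes name HISAT2 2.0.5, featureCounts 1.5.0-p3, StringTie 1.3.3b and DESeq2 1.20.0; genome build and strand setting are not given in the sources used here. The same table holds the authors' normalized values, FPKM, fold changes and p-values, which were not used here.

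Counts were analysed in R 4.3.3 with edgeR 4.0.16 (filterByExpr, TMM, robust glmQLFit and glmQLFTest on time point, Benjamini-Hochberg adjustment, threshold 0.05). Standard errors were derived from the F statistic. DESeq2 1.42.0, RLE, upper-quartile and library-total scaling, no filter, a replicate block and leaving out each library were the alternatives. The edgeR fit with TMM was tested on simulated counts with few changed genes, some raised and some lowered. That simulation cannot show how scaling acts where many genes change, as they did here. Profiles used log2 CPM with a prior count of 2. All 6 libraries were kept. Replicate pairs differed by far more than sampling noise (chi-square per degree of freedom 7.74 to 14.1), which is no measure of their quality. The p-values measure the spread between pooled samples that the labels call biological replicates.

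The members and lists were chosen with earlier results of these data known. The genes named are the 10 members, STAT2, the SOCS genes, in each role up to 3 genes with the largest change among those past the threshold whose log2 CPM averaged 1 or more, and the 5 most similar profiles of CISH and of STAT3. Others, given for their role or as a small count, were named after their values were seen. One listed gene is not reported here and was left out of the pathway counts. Sequences were not analysed here.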

Additional observations from a re-analysis of the deposited data

How the results depend on the processing

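Of 120 values of the 10 members over 12 alternatives, 110 kept their direction and their side of the threshold, 9 lost the call, all of PIAS1, and 1 changed sign, PIAS2 with upper-quartile normalization (-0.0096). The number of members higher at 1 h was 7, or 6 where PIAS1 was lost, and lay between 6 and 7 with each library left out. For 19 other named genes, 219 of 228 values were kept, 6 calls were lost, all of STAT2, and SOCS6 changed sign with upper-quartile normalization (-0.037) and without 1 h replicate 3 (-0.0020 to 0.20 with each library left out), as did SOCS2 without 1 h replicate 2 (-0.014 to 0.31 with each library left out). Among all genes, upper-quartile normalization gave 3400 lower genes in place of 1488. The pathway lists had 31 higher genes, but 28 with upper-quartile normalization, 30 with DESeq2 and 29 to 30 with each library left out. In the pathway lists the number of lower genes was 1, but 5 with upper-quartile normalization, 4 with library totals, 2 without a filter and 1 to 2 with each library left out. The cause was not tested. The profiles most like CISH and STAT3 were computed again with a prior count of 0.5, and all 5 were shared for each. A replicate block left 6 members higher, PIAS1 being lost, and gave 2385 higher and 1345 lower genes in all. With the block, edgeR's adjusted p fell from 0.00432 to 5.79e-06 for SOCS3 and from 0.00337 to 4.41e-06 for SOCS1. It rose from 9.1e-11 to 1.54e-09 for CISH. Over all genes tested, libraries with the same replicate number did not deviate together (correlations between -0.0764 and 0.00466). No library correlated best with its own number, and the numbers were not taken as pairs. Single genes could differ from this: SOCS3 and FOS, though not SOCS1, were highest in replicate 2 at both time points. SOCS1 and SOCS3 were both lowest in replicate 1 at each time point, SOCS3 at time 0 only narrowly (3.91 against 3.93 CPM in replicate 3). Depth limits the ligands and immune cell genes, several of which had few counts per library.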

Other observations

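In no library did every member deviate from its group mean in the same direction. In 1 h replicate 1, the library with the most globin counts, log2 CPM lay below the 1 h mean by 0.26 for PIM3, 0.20 for JAK2 and 0.18 for PIAS2, and above it by 0.13 for PTPN2, 0.10 for STAT3 and 0.09 for PIM1. CISH in the same library deviated by -0.02. In 1 h replicate 2, PIM1 deviated by -0.33, PIAS1 by -0.17 and STAT3 by -0.14, and SOCS3, at 473 CPM, was at its highest there. The members' summed level was highest in 1 h replicate 3, at 2470 CPM. There PIM1 (0.24), PIM3 (0.24), CISH (0.05) and STAT3 (0.04) all lay above the mean, as did JAK2, PIAS1 and PIAS2. PTPN2 (-0.19), JAK1 (-0.04) and PTPN11 (-0.03) lay below it. Time 0 replicate 2 held the lowest level of CISH, with a deviation of -0.25, and the highest of PIM3, with 0.23.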
